A study of Mus musculus with 32 samples.

Results

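Genes of programmed cell death that answer to p53 or belong to the BCL2 family were followed through DNA damage, excision repair and transcription in 4 mouse organs. The 10 genes are Bax, Bbc3, Pmaip1, Fas, Tnfrsf10b, Aen, Apaf1, Perp, Bcl2l1 and Mcl1, chosen by name, and all 10 were found among the 25059 genes of the RNA-seq files and passed the filter of the study, which left 16502 genes. The animals were female C57BL/6J mice of 6 or 7 months, with no transgene or deletion in any group. Cisplatin was injected intraperitoneally at 10 mg per kg at zeitgeber time 1 (1 h after lights on), controls received the same volume of saline, and kidney, liver, lung and spleen were taken at zeitgeber time 5, whereas one field of the labels gives 2 h. Each organ gave 2 Damage-seq and 2 XR-seq libraries, all from cisplatin-treated mice, and 2 control and 2 cisplatin RNA-seq libraries. Whole organs were sequenced, so fewer cells of a type and less RNA per cell cannot be told apart.

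Damage-seq reads mark platinum adducts still present in the DNA, and XR-seq reads are the oligomers cut out around adducts by excision repair. Both were counted on each strand of a gene, the transcribed one (TS) and the non-transcribed one (NTS). Adducts on the TS stall RNA polymerase and call in transcription-coupled repair, so the TS of an active gene is usually repaired faster than its NTS. In the intrinsic pathway of apoptosis, BCL2-family proteins decide whether mitochondria release cytochrome c. BAX forms the pore, the BH3-only proteins PUMA (Bbc3) and NOXA (Pmaip1) favour it, and BCL-XL (Bcl2l1) and MCL1 hold it shut. APAF1 then assembles the apoptosome that activates caspase 9. In the extrinsic pathway the death receptors Fas and TRAIL-R2 (Tnfrsf10b) activate caspase 8. The nuclease AEN and the membrane protein PERP are p53-inducible effectors of cell death, and most of the genes named here are known p53 targets.

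Reads on genes per library ranged from 1571167 to 6441367 in Damage-seq, from 10658675 to 59779770 in XR-seq and from 15619474 to 162270280 in RNA-seq. The 2 control libraries of lung, and those of spleen, varied 2.75 and 2.98 times as much as read sampling alone gives. Both values fell just under the limit of 3 used here, so each pair was counted as 1 sample. A test there assumes that this sample varied like the treated libraries. All p-values measure the spread between these few samples. The lung and spleen RNA-seq libraries also stood apart in their cell-type markers. The 8 pancreas markers summed to 1369 and 1875 CPM (counts scaled to the library total) in the cisplatin spleens and to between 0.542 and 0.62 CPM in the control spleens. The 6 liver markers summed to 2.88 and 388.7 CPM in the cisplatin spleens and to 13.2 to 34.9 CPM in the controls. The 5 erythroid markers summed to 7536 and 19440 CPM in the cisplatin spleens and to 10600 to 11060 CPM in the controls. In lung the erythroid markers summed to 7908 to 8297 CPM in controls and to 3374 to 4428 CPM after cisplatin. The 7 kidney markers summed there to 118.9 to 119.4 and 48.8 to 66.0 CPM. The 5 spleen and B cell markers in lung summed to 260 to 273 CPM in controls and to 53.5 to 75.5 CPM after cisplatin. The 4 T cell markers there summed to 98.1 to 102 and 22.9 to 26.5 CPM, and the 3 high endothelial venule markers to 156 to 160 and 0.16 to 0.388 CPM. Nearly all of this last sum in the lung controls was Glycam1 (155.2 and 159.3 CPM). Madcam1 was at 0.868 and 0.623 CPM in them and Ccl21a at 0. The part of these markers in the results for lung and spleen was not tested. The defining markers of each organ were otherwise abundant in its own libraries, at 21360 CPM or more for the 7 kidney markers in kidney, 79240 CPM or more for the 6 liver markers in liver and 67110 CPM or more for the 5 lung markers in lung.

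The upstream sequences of a few of these genes are given because the genes are known for control by p53. RefSeq promoters (build GRCm38.p6) were matched to 7 of the 10 genes, and Pmaip1 was left out of that search. Bax and Aen are shown because a p53 decamer (the 10-base consensus to which one p53 dimer binds, a palindrome, so that a match reads the same way on either strand) lay within their 300-base promoter windows, which 8.36% of 32851 RefSeq promoters have. Fas is shown for an AP-1 motif (TGANTCA, both strands, found in 7.81% of promoters), and Mcl1 because its RNA rose in kidney with no p53 decamer in the window. Capitals mark the p53 decamer, the AP-1 motif and the GC box (GGGCGG, both strands, found in 35.66% of promoters). For Aen, only 30 bases around the decamer are printed, since it lies 10 bases past 1 of the 2 RefSeq starts of Aen and 121 bases before the other.
Bax, chr7:45466899-45467148, minus strand: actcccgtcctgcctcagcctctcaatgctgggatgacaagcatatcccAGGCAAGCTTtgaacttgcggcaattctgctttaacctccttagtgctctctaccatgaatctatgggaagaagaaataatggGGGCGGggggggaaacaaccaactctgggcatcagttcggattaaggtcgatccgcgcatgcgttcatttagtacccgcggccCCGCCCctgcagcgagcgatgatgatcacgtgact
Aen, chr7:78895927-78895956, plus strand: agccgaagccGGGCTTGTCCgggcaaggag
Fas, chr19:34290409-34290658, plus strand: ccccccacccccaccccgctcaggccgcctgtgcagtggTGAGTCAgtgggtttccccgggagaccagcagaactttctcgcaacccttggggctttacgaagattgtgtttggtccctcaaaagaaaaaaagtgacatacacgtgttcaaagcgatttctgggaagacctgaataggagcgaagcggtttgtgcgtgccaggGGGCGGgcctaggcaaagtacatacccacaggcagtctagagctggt
Mcl1, chr3:95658471-95658720, plus strand: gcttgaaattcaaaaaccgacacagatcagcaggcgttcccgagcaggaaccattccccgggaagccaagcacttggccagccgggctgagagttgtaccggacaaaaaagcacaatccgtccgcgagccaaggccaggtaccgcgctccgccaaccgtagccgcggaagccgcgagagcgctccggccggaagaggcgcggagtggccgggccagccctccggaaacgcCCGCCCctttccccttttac
The Bax decamer began 201 bases before the RefSeq start and the Fas AP-1 motif 211 bases before it. A full p53 site, taken as 2 decamers with a spacer of at most 10 bases, was found within 2000 bases of the start in 0 of the 10 genes and in 165 of 16502 genes (1.0%). Single decamers were found in that wider window in 9 of the 10 genes (all but Tnfrsf10b) and in 74.85% of all genes. A match is a description of the letters in a window, and nothing about binding of p53 follows from it or from its absence.

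The genes lie on build GRCm38 (mm10) at chr7:45461697-45466898 (Bax, minus strand), chr7:16308393-16318205 (Bbc3, plus), chr18:66458533-66465565 (Pmaip1, plus), chr19:34290666-34327772 (Fas, plus), chr14:69767472-69784411 (Tnfrsf10b, plus), chr7:78895854-78911209 (Aen, plus), chr10:90989311-91082770 (Apaf1, minus), chr10:18845020-18857073 (Perp, plus), chr2:152780668-152831728 (Bcl2l1, minus) and chr3:95658788-95663176 (Mcl1, plus). They differ in length from 4389 bases (Mcl1) to 93460 bases (Apaf1), and TS and NTS reads were counted over the whole gene. Bax, Fas and Apaf1 each overlap 1 other annotated gene that was not among the genes of the files.

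The first comparison asked how the RNA of each gene differed between cisplatin and control in each organ. In kidney, Pmaip1, Mcl1, Tnfrsf10b and Aen rose, and Pmaip1 also rose in lung. No gene of the 10 passed the edgeR test in liver or spleen, with 1 at an unadjusted p under 0.05 in each and 0 called by DESeq2, and none was called lower in any organ. Calls rest on edgeR's quasi-likelihood test that a log2 fold change exceeds 0.4, with an adjusted p under 0.05 (Benjamini-Hochberg over all genes tested). In kidney 4 of the 10 genes were called higher, where 2.4% of 15471 genes were, and 0 were called lower, where 2.65% were.

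Among the BH3-only genes, Pmaip1 showed the largest change of the 10 genes. Its kidney level was 9.99 and 3.22 RPKM (reads per kilobase of exon, scaled to the library total) in controls and 146.5 and 98.1 RPKM after cisplatin. Both treated libraries lay far above both controls, and its controls differed from each other more than those of the other 3 called genes did. The log2 fold change was 4.31 ± 0.53 (SE, n = 2 and 2, edgeR adjusted p = 0.016). In lung the level went from 5.74 and 6.33 RPKM to 17.3 and 22.3 RPKM, again with no overlap, a log2 fold change of 1.68 ± 0.23 (SE, adjusted p = 0.0303). The lung call was lost in a joint fit of all organs (adjusted p = 0.598) and without cisplatin replicate 1 or 2 of lung (edgeR adjusted p = 0.804 and 1.0), fits in which the spread came from all organs. In spleen Pmaip1 was at 17.7 and 19.3 RPKM in controls and 22.6 and 24.9 RPKM after cisplatin, and in liver all 4 libraries lay between 0.294 and 1.64 RPKM with overlap of the groups.

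Bbc3, the gene of PUMA, had its largest difference in spleen. The spleen level was 4.12 and 4.64 RPKM in controls and 12.0 and 10.7 RPKM after cisplatin, so the groups were well apart. The log2 fold change of 1.37 ± 0.21 (SE) had an unadjusted p of 0.0022 but did not pass the edgeR test over all genes (adjusted p = 0.506). The 8 pancreas markers, high in the same 2 libraries, are given above. In kidney Bbc3 was at 1.15 and 1.45 RPKM in controls and 2.05 and 2.27 RPKM after cisplatin (adjusted p = 0.384), and in liver it was lower in both treated libraries (3.98 and 4.15 RPKM) than in both controls (5.715 and 4.98 RPKM, adjusted p = 0.931).

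Mcl1, an anti-apoptotic gene with a short-lived protein, had the smallest adjusted p of the 10 genes. In kidney its level was 48.35 and 51.3 RPKM in controls and 192.3 and 185.5 RPKM after cisplatin, with replicates close together and groups far apart. The log2 fold change was 1.98 ± 0.17 (SE, n = 2 and 2, adjusted p = 0.00694), which is 3.95-fold. In lung Mcl1 was at 139.0 and 142.8 RPKM in controls and 185.0 and 178.1 RPKM after cisplatin (log2 fold change 0.35 ± 0.16, adjusted p = 0.91). In spleen the treated libraries (217.8 and 225.1 RPKM) lay slightly below the controls (234.7 and 238.6 RPKM), with an adjusted p of 1.0. In liver the log2 fold change was 0.47 ± 0.35.

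Bcl2l1, the gene of BCL-XL, had its largest difference in lung. Its lung level was 37.3 and 36.0 RPKM in controls and 59.5 and 73.1 RPKM after cisplatin, with no overlap. The log2 fold change of 0.87 ± 0.20 (SE) missed the threshold (adjusted p = 0.192) and passed it when each control library counted as a replicate (adjusted p = 0.0366). In kidney, liver and spleen its log2 fold changes lay between 0.22 and 0.36, and none was called. Bax, the pore-forming member, had its largest difference in liver, from 7.14 and 8.13 RPKM to 15.0 and 13.6 RPKM. These groups did not overlap, and the log2 fold change of 0.91 ± 0.34 (SE) was not called (adjusted p = 0.571). In kidney the Bax groups overlapped, at 18.1 and 13.2 RPKM in controls and 24.1 and 15.8 RPKM after cisplatin.

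Each death receptor gene had its largest difference in another organ. Tnfrsf10b was at 0.494 and 0.467 RPKM in the control kidneys and at 1.41 and 1.57 RPKM after cisplatin. The groups did not overlap and the log2 fold change was 1.70 ± 0.28 (SE, adjusted p = 0.0339). Its call was lost in the joint fit of all organs (adjusted p = 0.0529) and without kidney cisplatin replicate 1 or 2 (adjusted p = 0.163 and 0.133), with log2 fold changes of 1.79 and 1.58. Fas had its largest difference in lung, from 25.5 and 26.4 RPKM in controls to 40.5 and 75.8 RPKM after cisplatin. The treated libraries differed widely from each other, and the log2 fold change of 1.16 ± 0.37 (SE) was not called (adjusted p = 0.296), although it passed with no filter on low counts (adjusted p = 0.0437). In kidney Fas rested at 4.14 and 3.53 RPKM in controls and 5.15 and 4.62 RPKM after cisplatin. Whether the response of Fas or Tnfrsf10b differed between organs did not pass its own test (adjusted p = 0.635 and 0.72).

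Of the p53-inducible effectors, Aen was called in kidney. Its kidney level went from 3.75 and 2.89 RPKM to 8.60 and 7.87 RPKM, with no overlap, a log2 fold change of 1.38 ± 0.19 (SE, adjusted p = 0.0232). Without kidney cisplatin replicate 1 or 2 the log2 fold change stayed at 1.33 and 1.41 but the call was lost (adjusted p = 0.161 and 0.0519). In liver Aen went from 1.57 and 1.44 RPKM to 4.38 and 2.70 RPKM, also without overlap. Its log2 fold change of 1.21 ± 0.32 (SE) was not called by itself (adjusted p = 0.324) and was called in the joint fit of all organs (adjusted p = 0.0241). In spleen all 4 libraries lay between 4.35 and 4.48 RPKM, and the log2 fold change of 0.06 turned to -0.02 without cisplatin replicate 1.

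Perp was at 59.6 and 50.15 RPKM in the control kidneys and at 86.7 and 76.3 RPKM after cisplatin (log2 fold change 0.63 ± 0.16, adjusted p = 0.22). In spleen it was nearly silent, at 0.397 and 0.459 RPKM in controls and 1.67 and 0.729 RPKM after cisplatin (adjusted p = 1.0). These treated libraries held the pancreas markers and differed widely in liver markers, as given above. Apaf1 stood apart as the gene whose log2 fold change was below 0 in each organ, at -0.33, -0.39, -0.56 and -0.07 in kidney, liver, lung and spleen, none of them called. In lung it was at 3.59 and 3.47 RPKM in controls and at 2.27 and 2.48 RPKM after cisplatin (adjusted p = 0.529), and the lymphocyte markers given above were lower in the same 2 treated libraries. The Apaf1 value turned to 0.15 in liver without cisplatin replicate 2 and to 0.03 in spleen without cisplatin replicate 1.

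**Figure D1:**
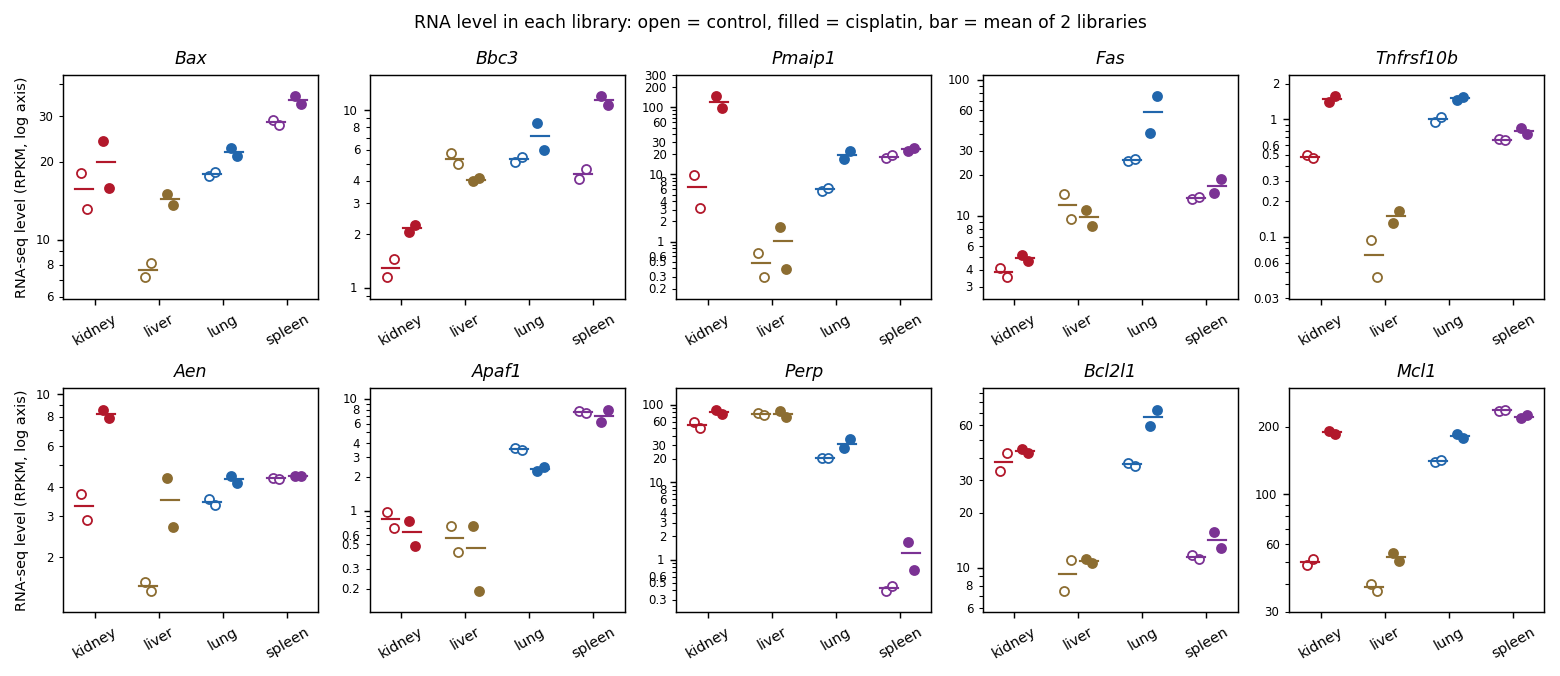
RNA level of each gene by organ in RPKM on a log axis, with open points for control libraries, filled points for cisplatin libraries and bars for the mean of 2 libraries. The Pmaip1 points of kidney move from 3.22 and 9.99 to 98.1 and 146.5 RPKM, while the 4 Aen points of spleen lie on top of each other.

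Over the list, kidney had 9 of the 10 log2 fold changes above 0, liver 7, lung 9 and spleen 8, with medians of 0.71, 0.35, 0.49 and 0.32. The medians over all genes tested were -0.003, 0.03, 0.03 and 0.02. In kidney both treated libraries lay above both controls for 8 of the 10 genes, where this held for 24.3% of all genes. The same count was 4 in liver (20.2% of all genes), 9 in lung (34.1%) and 8 in spleen (28.9%). In lung 1 of the 10 genes was called higher, where 0.132% of 18210 genes were, and 0 were called lower, where 1.96% were. In liver 0 were called in either direction, as were 0.0% of 13868 genes higher and 0.0% lower, with 1 of the 10 genes and 1287 of all genes at an unadjusted p under 0.05. DESeq2 called 0 of the 10 in liver and 189 of all genes. In spleen 0 of the 10 were called, where 0.164% of 17686 genes were called higher and 0.017% lower. There 1 of the 10 (Bbc3) and 768 of all genes had an unadjusted p under 0.05, and DESeq2 called 0 of the 10 and 85 of all genes.

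**Figure D2:**
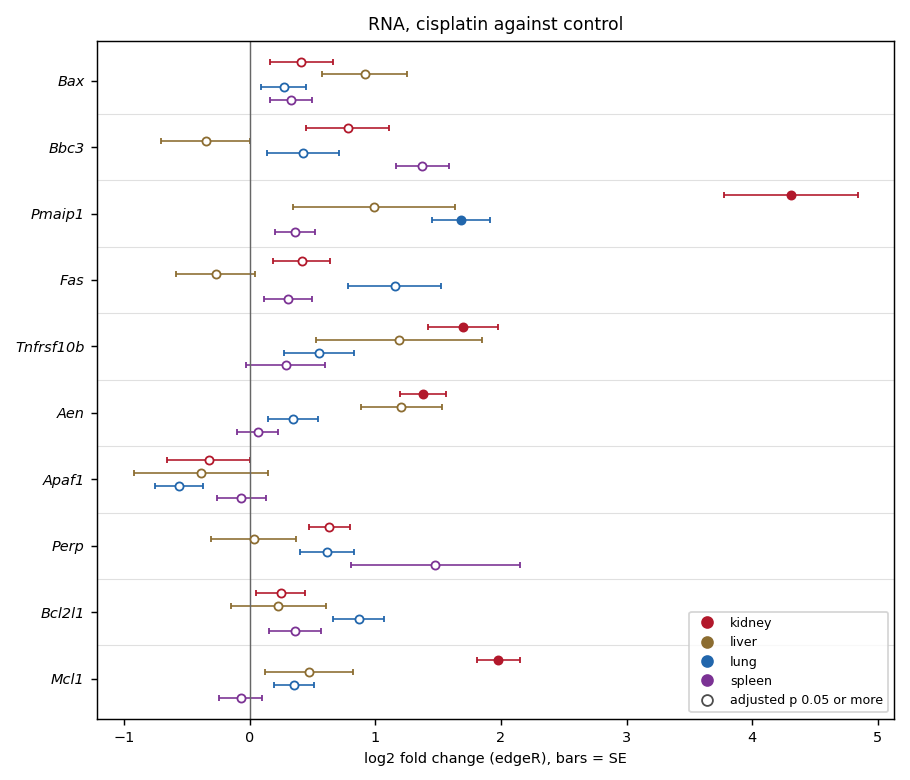
Log2 fold change of RNA between cisplatin and control for each gene and organ, with bars for 1 SE. Filled points passed the test. The 4 filled kidney points are Pmaip1, Mcl1, Tnfrsf10b and Aen, the filled lung point is Pmaip1, and each Apaf1 point lies below 0.

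Whether the response differed between organs was tested as an interaction over the 4 organs. None of the 10 genes passed in edgeR, where 0.209% of 19100 genes did. An unadjusted p under 0.05 was found for 4 of them (Bbc3, Pmaip1, Aen and Mcl1) and for 1608 of the 19100 genes. The adjusted p was 0.165 for Pmaip1, 0.168 for Mcl1 and 0.179 for Aen. The likelihood ratio test of DESeq2 called these 3 genes, among 739 of 16180 genes. Between kidney and spleen the log2 fold change of Pmaip1 differed by 4.02 ± 0.80 (SE) and that of Mcl1 by 2.12 ± 0.42, each with an adjusted p of 0.0819, where 0.304% of all genes passed.

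Other genes of the same pathways were counted from lists. Of 16 p53 targets in arrest, feedback and repair, 6 were called higher in kidney (2.4% of all genes) and 0 lower (2.65%), with a median log2 fold change of 0.70. By smallest adjusted p these were led by Gdf15, a secreted stress cytokine (4.14 and 3.29 RPKM in controls, 108.6 and 141.9 RPKM after cisplatin, log2 fold change 5.15 ± 0.25), Btg2, an antiproliferative gene (2.96 ± 0.18), Plk2, a polo-like kinase (2.86 ± 0.20), and Cdkn1a, the gene of the cell cycle inhibitor p21 (4.33 ± 0.39). In lung 1 of the 16 was called, Cdkn1a, from 42.2 and 40.3 RPKM to 141.5 and 165.3 RPKM (log2 fold change 1.91 ± 0.20). None of the 16 was called by edgeR in liver or spleen. There 6 and 1 had an unadjusted p under 0.05, beside 1287 of 13868 and 768 of 17686 genes. DESeq2 called 1 in each, beside 189 of 13909 and 85 of 17586 genes. Of p53 itself and its regulators, 1 of 11 genes tested in kidney was called higher (again beside 2.4%), Mdm2, the ubiquitin ligase that degrades p53, at 13.1 and 7.85 RPKM in controls and 42.8 and 29.8 RPKM after cisplatin (log2 fold change 1.87 ± 0.27, adjusted p = 0.0246). Trp53 itself had log2 fold changes of 0.56, 0.24, -0.40 and -0.14 in kidney, liver, lung and spleen, none called (lowest edgeR adjusted p = 0.351).

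Of the other BCL2-family genes, 1 of 16 tested in kidney passed, and it was lower, where 2.65% of all genes were lower. This was Bcl2, the founding anti-apoptotic member, at 2.35 and 2.80 RPKM in controls and 0.965 and 0.862 RPKM after cisplatin (log2 fold change -1.44 ± 0.23, adjusted p = 0.035). In lung its log2 fold change was -1.20 ± 0.19 (SE, edgeR adjusted p = 0.0576), just short of a call. Liver and spleen had -0.63 ± 0.43 and 0.28 ± 0.18, neither called. The list had a median log2 fold change of -0.20 in kidney, with 5 of 16 genes above 0. The BH3-only gene Bcl2l11 was between 0.33 and 0.89 in log2 fold change over the organs and was not called. In the death receptor pathway 1 of 11 genes tested in kidney was called higher (beside 2.4% of all genes), Cflar, an inhibitor of caspase 8 activation, from 10.8 and 8.24 RPKM to 21.7 and 17.4 RPKM (log2 fold change 1.10 ± 0.19, adjusted p = 0.048). Among 15 caspases, apoptosome genes and inhibitors none was called by edgeR in kidney, liver or spleen (2, 1 and 0 at an unadjusted p under 0.05, and 1, 0 and 0 called by DESeq2). Of all genes, 2937 of 15471, 1287 of 13868 and 768 of 17686 had an unadjusted p under 0.05, and DESeq2 called 830 of 14715 in kidney. Birc5, a mitotic gene of the inhibitor of apoptosis family, was the 1 of the 15 called in lung (1.96% of all genes were lower there), at 3.22 and 3.34 RPKM in controls and 1.08 and 1.00 RPKM after cisplatin (log2 fold change -1.67 ± 0.27, adjusted p = 0.0491), in the libraries with fewer lymphocyte markers.

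Levels in the saline controls were compared between organs. Over the 6 pairs of organs, 31 of the 60 tests on the 10 genes were called between controls, where 41.2% of all tests over genes and pairs were. Perp differed in all 6 pairs, at 75.1 RPKM in liver, 54.9 in kidney, 20.5 in lung and 0.428 in spleen. Bbc3 differed in 5 pairs, at 5.35 RPKM in liver, 5.29 in lung, 4.38 in spleen and 1.3 in kidney. The nearly equal RPKM values of liver and lung stand beside a log2 difference of 1.12 ± 0.37 (SE, adjusted p = 0.0284) once the reads were scaled for the few genes that dominate liver RNA, so the order by RPKM and by the fit need not match. Lung against spleen was not called for Bbc3 (adjusted p = 0.748 in edgeR).

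The orders that follow are by RPKM. Apaf1 was highest in spleen (7.63 RPKM), then lung (3.53), kidney (0.837) and liver (0.574). Spleen and lung did not differ beyond their spread (adjusted p = 0.144 in edgeR), nor did kidney and liver (adjusted p = 0.586), and lung and kidney did (adjusted p = 0.011). Mcl1 had the same order, from 236.6 RPKM in spleen and 140.9 in lung to 49.8 in kidney and 38.6 in liver, with the step from lung to kidney called (adjusted p = 0.0106). In the fit kidney lay below liver for both genes, by a log2 difference of -0.33 ± 0.41 for Apaf1 and -0.51 ± 0.27 for Mcl1 (SE, neither called). Fas was highest in lung (25.9 RPKM), followed by spleen (13.55), liver (11.95) and kidney (3.84), and the last step was called (adjusted p = 7.56e-05). In the fit Fas of liver was level with lung (log2 difference -0.02 ± 0.35) and above spleen (0.84 ± 0.36), neither of them called. Pmaip1 went from 18.5 RPKM in spleen to 6.6 in kidney, 6.03 in lung and 0.487 in liver, the last step called (adjusted p = 0.00664). Bcl2l1 was at 38.0 RPKM in kidney, 36.7 in lung, 11.4 in spleen and 9.27 in liver, with the step from lung to spleen called (adjusted p = 0.0183). In the fit Bcl2l1 of liver lay above spleen (log2 difference 0.79 ± 0.38, not called). Tnfrsf10b ran from 1.0 RPKM in lung to 0.0697 in liver, with the last step called. Bax differed in 1 pair, liver against spleen (7.64 and 28.4 RPKM), and Aen, at 1.51 to 4.37 RPKM, was called in no pair (lowest edgeR adjusted p = 0.109).

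Excision repair was then compared between the strands of each gene. Levels are CPM over all reads on genes per 1000 GG dinucleotides, the main target of cisplatin, on that strand. They and the fits between organs are scaled to each library. They give the share of a gene in a library, not the amount of repair or damage in an organ. In XR-seq the TS was above the NTS for each of the 10 genes in each organ, and 36 of the 40 gene and organ tests passed. In kidney 10 of the 10 were called (58.3% of 16502 genes), in liver 7 (52.0%), in lung 10 (61.0%), and in spleen 9 (59.4%). Median log2 TS/NTS of the 10 genes was 4.20, 2.90, 4.34 and 3.70 in kidney, liver, lung and spleen, beside 2.70, 2.11, 3.14 and 3.07 over all genes. DESeq2 called the same numbers, 10, 7, 10 and 9.

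Apaf1, which spans 93460 bases and carries 4715 GG on the TS, was uneven in all 8 libraries. On the TS, kidney had levels of 17.99 and 18.8, liver 19.99 and 27.8, lung 25.75 and 27.2, and spleen 36.6 and 30.6. Its NTS level lay between 0.452 and 0.991 in all 8 libraries, so no library overlapped. The log2 TS/NTS was 4.54 ± 0.33 in kidney and 5.79 ± 0.35 in spleen (SE, n = 2 each). Aen was of the same kind, with TS levels between 35.95 and 95.05 and NTS levels between 1.42 and 5.27, and its log2 TS/NTS lay between 3.88 and 4.97. For Fas and Tnfrsf10b the TS exceeded the NTS by at least 9.10 times per GG in each library.

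Bbc3 and Bcl2l1 were less uneven than Apaf1, Aen, Fas and Tnfrsf10b in kidney, liver and lung, and in spleen this held for Bbc3 but not for Bcl2l1. The size of the asymmetry differed between organs for these 2 of the 10 genes, as it did for 20.1% of all genes. On the TS of Bbc3, kidney had levels of 102.6 and 90.1, liver 52.2 and 49.3, lung 88.55 and 75.8, and spleen 62.3 and 68.45. Its NTS levels were 21.8 and 31.1, 40.3 and 46.0, 36.6 and 36.8, and 35.8 and 31.8 in the same order. The log2 TS/NTS of kidney was 1.88 ± 0.21, that of liver 0.24 ± 0.20 (not called, adjusted p = 0.348), that of lung 1.16 ± 0.20 and that of spleen 0.96 ± 0.20 (SE). The difference between organs (adjusted p = 0.0217 in edgeR) was lost without liver replicate 1 or 2 or lung replicate 1 or 2 (adjusted p = 0.0841, 0.1325, 0.0691 and 0.0587).

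Bcl2l1 had its largest asymmetry in spleen. On its TS, kidney had levels of 56.97 and 57.2, liver 52.4 and 39.96, lung 51.5 and 50.3, and spleen 34.9 and 42.9. Its NTS levels fell more widely, from 13.5 and 13.4 (kidney) over 5.81 and 7.135 (liver) and 7.35 and 6.99 (lung) to 1.825 and 2.08 (spleen), without overlap between spleen and any other organ. The log2 TS/NTS was 2.08 ± 0.19 in kidney, 2.83 ± 0.19 in both liver and lung and 4.31 ± 0.21 in spleen (SE). Its difference between organs (adjusted p = 0.00438) passed in each of the 8 fits that left out 1 library, at most 0.0331.

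**Figure D3:**
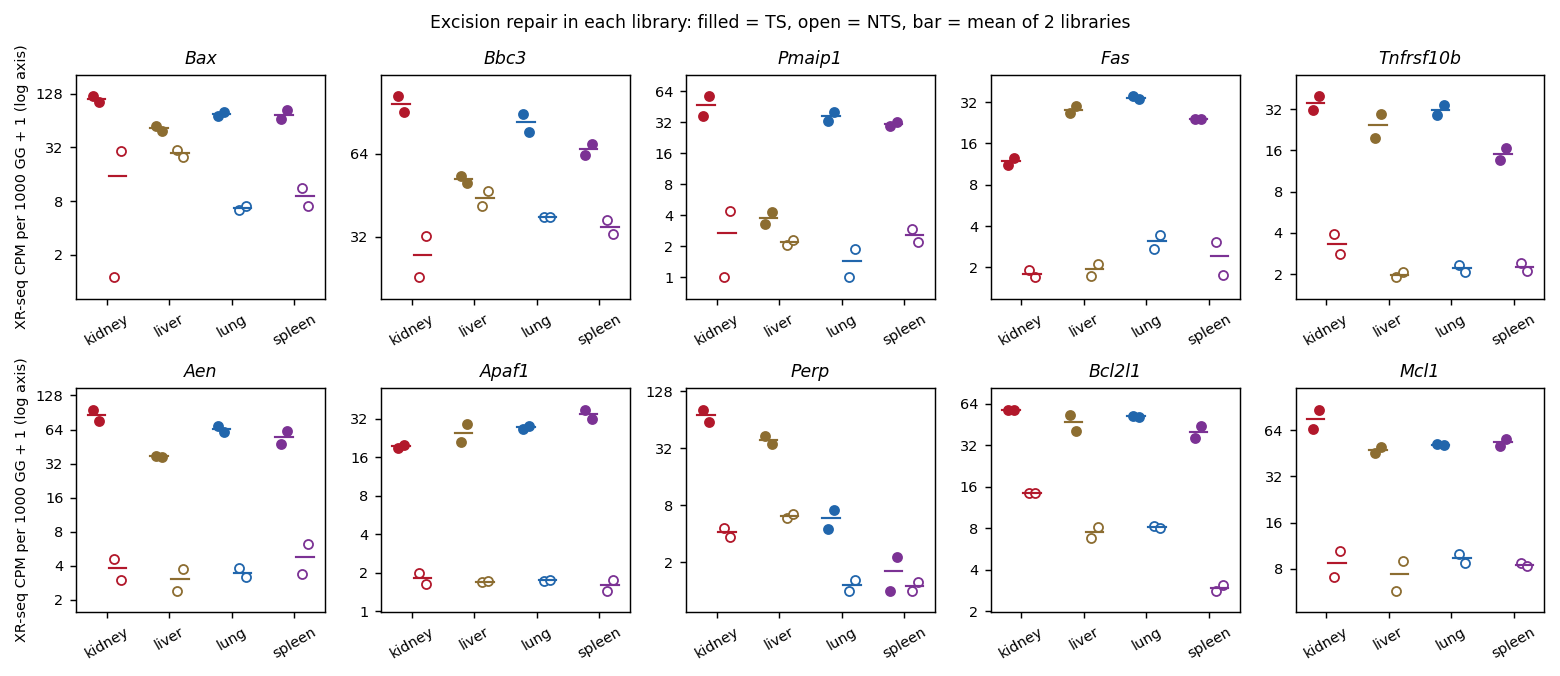
XR-seq level of each gene by organ, as CPM per 1000 GG plus 1 on a log axis, with filled points for the TS, open points for the NTS and bars for the mean of 2 libraries. TS points lie above NTS points throughout except in the spleen library without Perp reads, and the Bbc3 points of liver come closest, at 52.2 and 49.3 on the TS and 40.3 and 46.0 on the NTS before the 1 was added.

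Some ratios rested on few or discordant reads. Bax had 1 NTS read in kidney replicate 1 and 349 in replicate 2, beside 864 and 1119 TS reads, and its log2 TS/NTS of 4.47 ± 1.46 in kidney had the widest error of its 4 organs. In liver Bax had 1146 and 793 TS reads and 682 and 453 NTS reads, with a log2 TS/NTS of 0.94 ± 1.05 that was not called (adjusted p = 0.486). Pmaip1 had 0 NTS reads in kidney replicate 1 and lung replicate 1, and Perp had 0 reads on either strand in spleen replicate 1. Where a library had 0 reads on a strand, a count of that size allows up to 3 reads. In spleen Perp was not called (25 TS and 6 NTS reads in replicate 2, adjusted p = 0.156), and neither was Pmaip1 in liver (40 and 46 TS reads, 27 and 26 NTS reads, adjusted p = 0.509). Of the 36 calls, 29 passed in each fit that left out 1 library. The others were Bax in lung and spleen, Pmaip1 in lung and spleen, Perp in liver, Bbc3 in spleen and Mcl1 in liver, with adjusted p of at most 0.129, 0.244, 0.057, 0.217, 0.257, 0.0589 and 0.0552 without 1 library of that organ, and Bax and Pmaip1 in spleen were also lost without libraries of other organs.

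TS repair of each organ was next set against the mean of the 3 others, in a fit scaled by TMM (trimmed mean of M-values). It was called for 19 of 40 gene and organ tests, where 32.6% of all such tests were, and 10 of the 19 calls passed in each fit without 1 library. Scaling by all reads on genes instead moved the median gene from 0.11 to -0.28 in liver and from -0.01 to 0.21 in kidney on the log2 scale, so that the calls among all genes went from 58.6% to 36.0% higher in liver, from 49.8% to 72.0% in kidney and from 46.2% to 60.1% in lung.

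Perp had the widest range of the 10 genes. Kidney had TS levels of 81.2 and 60.25, liver 42.3 and 34.4, lung 3.44 and 6.16, and spleen 0 and 1.25. The order kidney, liver, lung and spleen was that of its mean RNA after cisplatin by RPKM, and no 2 organs overlapped in TS level. In RNA the treated libraries of kidney (76.3 to 86.7 RPKM) and liver (69.4 to 82.8 RPKM) did overlap. Among controls the edgeR fit placed Perp lower in kidney than in liver (log2 difference -1.34 ± 0.33, SE). Kidney was 3.50 ± 0.33 above the other organs on the log2 scale, liver 2.92 ± 0.33 above, and spleen 4.81 ± 0.54 below (SE, adjusted p = 7.35e-06, 1.45e-05 and 2.82e-05). The lower value of lung (-1.61) lost its call without lung replicate 1 (adjusted p = 0.157) and turned to 0.77 without spleen replicate 2, which leaves a spleen with 0 reads.

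Fas was low in kidney, with TS levels of 10.2 and 11.5, while liver had 25.5 and 29.01, lung 34.3 and 32.5 and spleen 23.2 and 23.3. Kidney was 1.56 ± 0.13 below the others (adjusted p = 2.64e-06), liver 0.82 ± 0.11 above and lung 0.69 ± 0.11 above (SE). Pmaip1 was low in liver, at 2.29 and 3.30, while kidney had 35.95 and 56.4, lung 32.3 and 39.3 and spleen 28.6 and 31.5. Liver was 3.32 ± 0.37 below (SE, adjusted p = 1.18e-05) and kidney 1.46 ± 0.28 above (adjusted p = 0.00161). Tnfrsf10b was low in spleen, at 12.7 and 15.7, while the other 6 libraries lay between 18.8 and 38.8, and spleen was 1.10 ± 0.20 below (SE, adjusted p = 0.00148). Apaf1 was 0.80 ± 0.13 lower in kidney than in the others (SE, adjusted p = 0.000532).

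Mcl1 TS repair was not called as different between organs in any of the 4 tests in edgeR (lowest adjusted p = 0.212, 0 of 4 at an unadjusted p under 0.05 and 0 called by DESeq2). Kidney had levels of 63.7 and 86.2, liver 44.7 and 49.1, lung 50.8 and 50.45 and spleen 49.8 and 55.3, although its RNA after cisplatin ran from 52.6 RPKM in liver to 221.4 RPKM in spleen. The other calls were smaller. On the log2 scale Bax, Bbc3 and Aen differed by 0.53, 0.36 and 0.56 in kidney and Aen by -0.48 in liver, and each lost its call without at least 1 library (adjusted p of at most 0.139, 0.214, 0.0865 and 0.0758). Bcl2l1 differed by 0.32 in liver, which turned to -0.07 when scaled by all reads on genes, and by -0.45 in spleen. Pmaip1 in lung (1.07) and Apaf1 in spleen (0.51) were also called, and these 4 lost the call without 1 library (adjusted p of at most 0.64, 0.243, 0.156 and 0.156). The organ with the highest mean TS repair was the organ with the highest RNA after cisplatin, ranked by RPKM, for 5 of the 10 genes. The organ with the lowest was the same for 6. The share over all genes was not computed, and the scaling of the edgeR fit can change the RNA order. The counts are over genes that share the same libraries and are given as a description.

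On the NTS, 6 of 40 tests between organs were called, where 11.0% of all such tests were. Bcl2l1 was 1.90 ± 0.17 lower in spleen and 1.04 ± 0.14 higher in kidney, and Bbc3 was 1.04 ± 0.17 lower in kidney (SE), and these 3 passed in each fit without 1 library. Bbc3 in kidney did not pass when scaled by all reads on genes (adjusted p = 0.0533), a scaling that moved the median gene of kidney from -0.08 to 0.44. The calls for Bcl2l1 in lung (0.94), Bbc3 in lung (0.69) and Perp in liver (3.42) were lost without 1 library (adjusted p of at most 0.0927, 0.293 and 0.226). That scaling also moved the share of calls that were higher from 42.4% to 85.2% in kidney, from 63.9% to 78.0% in liver, from 69.0% to 16.8% in lung and from 59.8% to 39.9% in spleen.

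Damage left in the DNA was compared in the same way. In Damage-seq the TS was below the NTS in 38 of the 40 tests and the difference was called for 20. In kidney 3 of the 10 genes were called lower on the TS (22.5% of 16502 genes), in liver 8 (35.2%), in lung 7 (27.7%) and in spleen 2 (13.0%). Median log2 TS/NTS of the 10 genes was -0.79, -1.42, -0.99 and -0.95 in kidney, liver, lung and spleen, beside -0.28, -0.53, -0.34 and -0.32 over all genes. None was called higher on the TS by edgeR (0 at an unadjusted p under 0.05) or DESeq2, and DESeq2 called 11 of the 40 lower. Single genes held few reads, from 0 to 209 on the TS of a library, which limits the precision for short genes. Damage-seq pairs varied only 1.43 (spleen TS) to 3.11 (kidney NTS) times as much as read sampling gives. Each library was still counted as a replicate, unlike the control RNA-seq libraries of lung and spleen.

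Bcl2l1 was called in all 4 organs. Kidney had 143 and 208 TS reads against 430 and 354 NTS reads, liver 48 and 24 against 158 and 92, lung 63 and 82 against 175 and 265, and spleen 23 and 44 against 43 and 84. No library had more reads on the TS than on the NTS. The log2 TS/NTS was -1.14 ± 0.15, -1.78 ± 0.22, -1.57 ± 0.18 and -0.90 ± 0.24 (SE, n = 2 each). The kidney call was lost without kidney replicate 1 (adjusted p = 0.054) and the spleen call without either spleen library (adjusted p = 0.0619 and 0.238).

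Fas was even between strands in kidney and uneven elsewhere. Kidney had 93 and 88 TS reads against 92 and 84 NTS reads, liver 35 and 25 against 80 and 40, lung 58 and 55 against 102 and 133, and spleen 17 and 30 against 37 and 68. The log2 TS/NTS was -0.03 ± 0.22 in kidney and -1.05 ± 0.27, -1.12 ± 0.23 and -1.23 ± 0.29 in liver, lung and spleen (SE). This difference between organs was called (adjusted p = 0.0217 in edgeR, where 7.67% of genes were called), and the call was lost without kidney replicate 1 or 2 or liver replicate 1 (adjusted p = 0.115, 0.17 and 0.0953). Kidney was also the organ with the lowest Fas RNA and the lowest TS repair of Fas. The liver call was lost without liver replicate 1 (adjusted p = 0.247) and the spleen call without spleen replicate 2 (adjusted p = 0.167).

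Apaf1 was called in liver and lung, with log2 TS/NTS of -0.71 ± 0.17 and -0.86 ± 0.15 (SE), and both calls passed in each fit without 1 library. Its kidney reads were 209 and 184 on the TS and 270 and 225 on the NTS (-0.25 ± 0.15, adjusted p = 0.235). Mcl1 in liver had 0 and 1 TS reads against 12 and 13 NTS reads, so 3.85% of 26 reads were on the TS, with an exact 95% interval (Clopper-Pearson) from 0.0973% to 19.6%, where 43.2% of its GG are on that strand. Intervals and limits of this kind cover counting error only. Bax had 4 TS and 23 NTS reads in liver and 7 and 42 in lung, summed over 2 libraries, or 14.8% and 14.3% on the TS, with exact intervals up to 33.7% and 27.2%, where 47.1% of its GG are on that strand. Each of the remaining calls was lost without 1 library of its own organ. The highest adjusted p was 0.439 for Bax (without kidney replicate 1), 0.614 for Mcl1 (without kidney replicate 1), 0.685 for Aen (without lung replicate 1), 0.205 for Bbc3 (without liver replicate 2), 0.187 for Tnfrsf10b (without lung replicate 1) and 0.259 for Perp (without liver replicate 1).

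**Figure D4:**
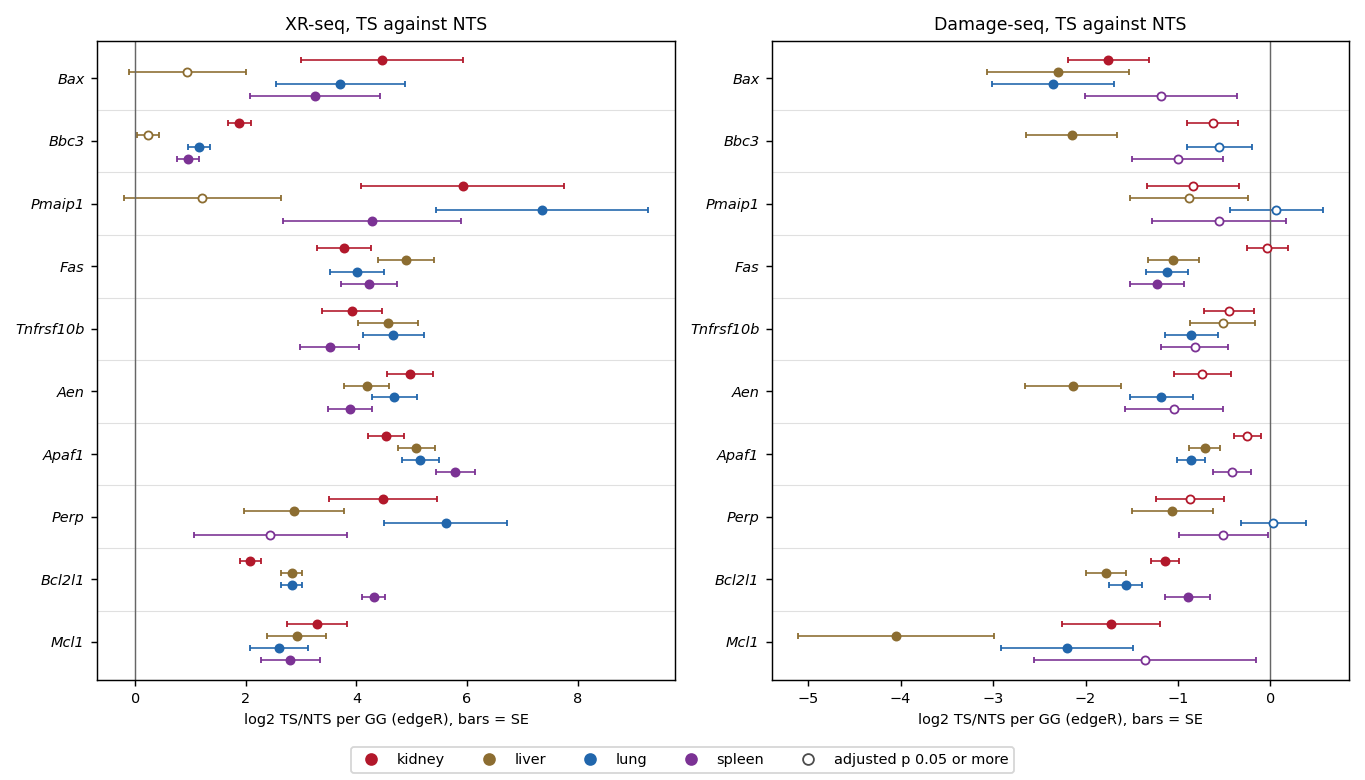
Log2 TS/NTS per GG of XR-seq (left) and Damage-seq (right) for each gene and organ, with bars for 1 SE and filled points for an adjusted p under 0.05. XR-seq points lie to the right of 0 and Damage-seq points to the left of it, apart from Perp and Pmaip1 in lung (0.03 and 0.06), and the kidney point of Fas sits at -0.03.

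Between organs, TS damage was called for 3 of 40 tests (8.25% of all such tests) and NTS damage for 6 of 40 (5.24%). All 6 NTS calls were in kidney, as were nearly all NTS calls of any gene (3409 of 3458), so that 6 of 10 genes stand beside 20.7% of all genes called there. On the TS 2 of the 10 were called in kidney, beside 20.3% of all genes. Bbc3 held a larger share of the damage reads in kidney on both strands, at 10.4 and 11.5 CPM per 1000 GG on the TS and 17.7 and 16.1 on the NTS. The amount of adducts per organ is not compared by such shares. TS levels of the other organs lay between 0.902 and 5.47 and their NTS levels between 4.91 and 12.2, so that kidney stood above them all. Kidney was 1.45 ± 0.32 above the mean of the others on the TS and 0.93 ± 0.22 above on the NTS (SE, adjusted p = 0.000213 and 0.00172). Bcl2l1 was likewise higher in kidney, by 0.76 ± 0.18 on the TS and 0.58 ± 0.13 on the NTS, and Fas was 0.82 ± 0.18 lower in kidney on the NTS (SE, adjusted p = 0.000712).

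The call for Bcl2l1 on the TS was lost without kidney replicate 2 (adjusted p = 0.33), and the others of this group passed in each fit without 1 library. Bax (1.10), Mcl1 (0.96) and Apaf1 (-0.37) on the NTS in kidney and Bbc3 on the TS in liver (-1.49) passed with all libraries and lost the call without at least 1 (adjusted p of up to 0.0974, 0.524, 0.238 and 0.301). Scaling by all reads on genes raised the median gene of kidney from 0.07 to 0.40 on the TS and from 0.01 to 0.24 on the NTS. The share of kidney calls that were higher then went from 57.2% to 94.4% on the TS and from 55.4% to 90.8% on the NTS, the share of TS calls in liver went from 51.0% to 3.72%, and the Apaf1 call was lost (adjusted p = 0.498).

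The genes were last compared with all others by the pattern of their RNA over 14 RNA-seq samples, as Pearson's r of log2(CPM + 1) after the mean of each organ was taken away, over 13203 genes tested in all organs. The most alike was Csrnp2 for Mcl1 (r = 0.99), Rrs1 for Aen (r = 0.98), Tet3 for Apaf1 (r = 0.97), 2310057M21Rik for Pmaip1 (r = 0.97) and Pdp1 for Tnfrsf10b (r = 0.97). For Bax it was 2310009B15Rik (r = 0.96), for Bbc3 Rps4l (r = 0.91), for Bcl2l1 Cyp2b10 (r = 0.90), for Fas Fmo4 (r = 0.89) and for Perp Hspb8 (r = 0.87). These are the highest of many values over samples that share libraries and treatment, and they are descriptions without a test.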

How the data were processed

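Damage-seq, XR-seq and RNA-seq were analysed as raw read counts per gene, which the authors deposited. RNA-seq reads were aligned to mm10 with STAR and counted with featureCounts by the authors. The kit is not stated to keep strand, so an antisense transcript cannot be told apart. The other reads were trimmed, aligned with BWA, freed of duplicates with Picard, kept where GG lay at the adduct position, and counted by the authors per gene and strand. The submitters later exchanged control and cisplatin in the labels of all 8 lung and spleen RNA-seq libraries. The present labels were used, and under the earlier ones each lung and spleen RNA fold change would have the opposite sign.

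From the counts, RPKM and CPM were computed here, and edgeR 4.0.16 (R 4.3.3, TMM, quasi-likelihood) gave all tests. The cisplatin response was fitted within each organ against a log2 fold change of 0.4. Strands were compared with the library as a block and log GG as an offset, and organs against the mean of the 3 others, over 16502 genes with at least 10 GG on the TS or the NTS, a length under 100000 bases and at least 20 reads per assay. Control libraries of lung and of spleen had a dispersion index (variance over that of sampling) of 2.75 and 2.98, under the limit of 3, and were summed. The limit was applied to RNA-seq only. In Damage-seq, where the index ran from 1.43 (spleen TS) to 3.11 (kidney NTS), each library counted as a replicate. DESeq2 1.42.0, RLE size factors, other filters, offsets, library sizes and left-out libraries were the alternatives. Scripts were tested on simulated data. A count line without a gene identifier was dropped. Exact intervals are at 95%.

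Members, lists and tests were chosen with earlier results of these data known. The text names all 10 genes, from each other list at most the 4 called genes with the smallest adjusted p per organ, and the most alike gene by pattern. Trp53 and Bcl2l11 were named for their roles after their values were seen. Promoters are from RefSeq.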

Additional observations from a re-analysis of the deposited data

Results flagged for a closer look

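The strand asymmetries of 3 genes differed between organs by a test of the difference itself. In XR-seq these were Bcl2l1 (edgeR adjusted p = 0.00438), with a log2 TS/NTS of 2.08 in kidney and 4.31 in spleen, and Bbc3 (edgeR adjusted p = 0.0217), with 1.88 in kidney and 0.24 in liver. In Damage-seq it was Fas (edgeR adjusted p = 0.0217), with -0.03 in kidney and -1.23 in spleen. Such a difference was called for 20.1% of all genes in XR-seq and 7.67% in Damage-seq. The Bcl2l1 difference passed without any 1 library, while that of Bbc3 was lost without either library of liver or lung and that of Fas without either library of kidney or without liver replicate 1. Their causes were not tested.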

How the results depend on the processing

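Treated and control groups share replicate numbers, but their deviations correlated at 0.303, 0.193, 0.057 and 0.28 in kidney, liver, lung and spleen, not over 0.1 in each, so the numbers were not used as pairs. The fit with the replicate block also counted each library as a replicate, which in lung and spleen changes 2 choices at once. Counts of all genes called for the RNA response moved with the processing. In kidney 782 genes became 1896 with no filter on low counts, 1711 when tested against no change and 3182 with the replicate block. In liver 0 became 189 with DESeq2 (1287 at an unadjusted p under 0.05 in edgeR), 518 in the joint fit of all organs, 155 with no filter and 1015 with the replicate block. In lung 381 became 1606 with each library as a replicate, 70 in the joint fit, 1089 with no filter, 804 when tested against no change and 1914 with each library as a replicate and the replicate block. In spleen 32 became 85 with DESeq2, 62 with each library as a replicate, 58 with no filter and 172 with each library as a replicate and the block. In spleen the calls were 29 higher and 3 lower, and 53 and 32 with DESeq2. Genes whose response differed between organs went from 40 to 739 with DESeq2, 621 with each library as a replicate, 344 with no filter, 24 with RLE size factors and 1780 with the replicate block within organ.

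Of the 10 genes, 4 in kidney became 5 with the replicate block (Perp, adjusted p = 0.0416) and 3 in the joint fit (without Tnfrsf10b, adjusted p = 0.0529). In liver 1 was called in the joint fit (Aen, adjusted p = 0.0241) and 1 with the block (Aen, 0.0274). In lung 1 became 2 with no filter, 2 with each library as a replicate, 3 with each library as a replicate and the block (Fas at 0.0225 and Bcl2l1 at 0.0131 added) and 0 in the joint fit. In spleen 0 became 1 with each library as a replicate and the block (Bbc3, 0.028, against 0.0546 without the block). For the difference between organs 0 became 1 with no filter, 3 with each library as a replicate, 3 with DESeq2 and 4 with the replicate block. Among strand results, 6 calls of XR-seq NTS between organs became 3 when scaled by all reads on genes and 11 with DESeq2, 20 of Damage-seq strand became 11 with DESeq2, 3 of Damage-seq TS between organs became 7 by all reads, and 6 of NTS became 3 with DESeq2.

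Without 1 library, the genes called ranged from 123 to 2005 in kidney, 22 to 1840 in liver, 0 to 339 in lung, 22 to 97 in spleen and 8 to 210 for the difference between organs. Of the 10 genes, 2 to 4 were called in kidney, 0 to 0 in liver, 0 to 1 in lung, 0 to 0 in spleen and 0 to 1 for the difference. Member calls ranged from 28 to 35 for control pairs, 32 to 37 for XR-seq strand, 15 to 21 for Damage-seq strand, 14 to 23 for XR-seq TS, 4 to 11 for XR-seq NTS, 1 to 5 for Damage-seq TS and 3 to 6 for Damage-seq NTS between organs.

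Some log2 values changed sign, given here as the range over fits without 1 library. In Damage-seq strand, Bax in spleen ranged from -2.95 to 0.16 (above 0 without spleen replicate 1), Mcl1 in spleen from -6.22 to 0.39 (above 0 without replicate 2), Pmaip1 in liver from -1.86 to 0.29 (above 0 without replicate 2), in lung from -0.41 to 0.52 (below 0 without replicate 1) and in spleen from -1.20 to 0.035 (above 0 without replicate 2), and Perp in lung from -0.18 to 0.25 (below 0 without replicate 1). With no GG offset Pmaip1 in lung was -0.45, Perp in lung -0.41 and Fas in kidney 0.041. In RNA, Pmaip1 in liver ranged from -0.021 (without cisplatin replicate 1) to 1.57, Aen in spleen from -0.021 (without cisplatin replicate 1) to 0.071, with -0.0033 in the joint fit, Apaf1 in liver from -1.32 to 0.15 (without cisplatin replicate 2) and in spleen from -0.32 to 0.034 (without cisplatin replicate 1), Perp in liver from -0.0957 (without cisplatin replicate 2, and -0.0501 without control replicate 1) to 0.12, and Bcl2l1 in liver from -0.12 (without control replicate 1) to 0.68. In XR-seq TS between organs, Perp in lung ranged from -2.055 to 0.77 (without spleen replicate 2), and Bcl2l1 in liver was -0.0674 when scaled by all reads. The causes were not tested. Few reads limit Damage-seq of short genes, and n of 2 limits all tests.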
